A study of Mus musculus with 6 samples.

Results

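Chemokines and their receptors were followed in the kidneys of mice after ischaemia and reperfusion. The set holds every non-control array probe whose gene name begins Ccl, Cxcl, Ccr or Cxcr with a digit, together with Cx3cl1, Cx3cr1, Xcl1 and Il8rb, the older name of Cxcr2. It comprises 69 of 41174 probes and 54 of 27343 genes, of which 35 encode ligands and 19 encode receptors. Kidney RNA of 6 samples was hybridised to Agilent mouse arrays read in 1 colour (Cy3). The groups were sham-operated wild-type mice (2 arrays), wild-type mice with ischaemia/reperfusion injury (2 arrays), and sham-operated and injured mice with Gpr97 deficiency (1 array each). Gpr97, now named Adgrg3, is an adhesion G protein-coupled receptor. The labels give male mice and whole kidney for all 6, while the sources used here do not give the age, the strain, the time after reperfusion or the nature of the Gpr97 allele. Nothing states that a group's arrays were from separate animals, so the p-values here measure spread between samples that may be technical.

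Chemokines are small secreted proteins that direct the movement of leukocytes through G protein-coupled receptors on the cell surface. CXC ligands with a glutamate-leucine-arginine sequence before their paired cysteines attract neutrophils through Cxcr2, the Ccl2 group attracts monocytes through Ccr2, the interferon-induced ligands Cxcl9 and Cxcl10 attract activated T cells through Cxcr3, and other ligands direct the resting traffic of lymphocytes and stem cells. In the kidney, reperfusion after a period without blood flow injures the tubules, and injured tubular cells and resident macrophages are known sources of chemokines.

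A value below is the log2 signal minus the 75th percentile of its array, so that 0 is the brightness of that percentile. Values of different probes are not compared, since brightness also depends on the probe. Of the 54 genes, 27 were well above background on all 6 arrays, 16 on 2 to 5 arrays, 4 on 1 array and 7 on no array. The 43 genes above background on at least 2 arrays were tested among 19611 genes with limma and Benjamini-Hochberg adjustment over all of them. The 11 others were Ccl22, Ccr7, Cxcl11 and Cxcr1, seen on 1 array each, and Ccr10, Ccr1l1, Ccr4, Ccr8, Cxcl15, Cxcl3 and Cxcr5, seen on none.

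The targeted gene matched the labels. Adgrg3 stood at 0.24, 0.05, 1.10 and 1.25 on the 4 wild-type arrays and at -5.34 and -5.71 on the 2 Gpr97-deficient arrays. The arrays lay on 2 slides: wild-type sham 1 and wild-type injured 2 on slide 1, and the other 4 on slide 2. The dimmest probe called well above background read -4.43 to -4.41 on slide 1 and -5.64 to -5.43 on slide 2, so dim probes read higher on slide 1 and injury differences are also given within each slide. The sample labelled wild-type injured 1 had Xist at 4.10, against -5.38 or less on the other 5 arrays, and 4 Y-linked genes not above background there and only there, which goes against its label as male. The upward counts after injury and the differences of Cxcl1, Ccl2, Ccl7, Ccl9, Ccl20, Cxcl17 and Cx3cl1 are given with and without that array. Of the 8 kidney tubule markers, all were above background on every array, with a summed linear signal, in units of the array's 75th percentile, of 782, 856 and 859 on the sham arrays and 738, 401 and 552 on the injured arrays.

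Chemokine values after injury split into a small group that was higher on every injured array and a larger group with no common direction. No member passed the test at an adjusted p under 0.05 in any of 7 comparisons, nor did any other gene (background 0%). At an unadjusted limma p under 0.05, injury over both genotypes reached 15 of 43 members, 13 higher and 2 lower, against 12.3% of all genes tested. Of these, Ccl20, Cxcl2, Cxcl5 and Xcl1 were above background after 1 surgery only. Among members above background on all 6 arrays the count was 10 of 27, with 2374 of 15831 genes. With slide as a block it was 19 of 43, with 3458 of 19611 genes. The 3 injured arrays all lay above the 3 sham arrays for 11 of 43 members, against 10.1% of all genes, and all below for 0 of 43, against 12.5%. Without wild-type sham 1 the latter count was 10 of 43 members, with 3813 of 19604 genes. At least 2-fold higher values in every injured and sham pair of a slide were seen for 7 members, against 1.19% of all genes, and at least 2-fold lower values for 2 members, against 0.76%. Those 7 were Cxcl1, Cxcl2, Cxcl5, Ccl2, Ccl7, Ccl20 and Cxcl17, and the 2 were Cxcr6 and Xcl1. The counts take readings at background as they stand, and for Cxcl2, Cxcl5 and Xcl1 the bounds given below do not reach 2-fold. Among members above background on all 6 arrays, 8 of 27 had injured arrays wholly above sham arrays, against 11.2% of genes with the same property, and 4 of 27 were at least 2-fold higher in every pair, against 1.02%. The median member differed by 0.05 after injury, against -0.04 over all genes, with 23 members higher and 20 lower. Of all genes, 8819 of 19611 were higher. With another background correction (normexp), which moved the median of all genes to 0.20, 33 members were higher and 10 lower, with a median of 0.59. Of all genes, 12398 of 19611 were then higher. Without wild-type injured 1, 12 of 43 members did not overlap upward, with 2952 of 19604 genes. At least 2-fold higher values in every remaining pair were then seen for 10 members, with 422 of 19604 genes.

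**Figure D1:**
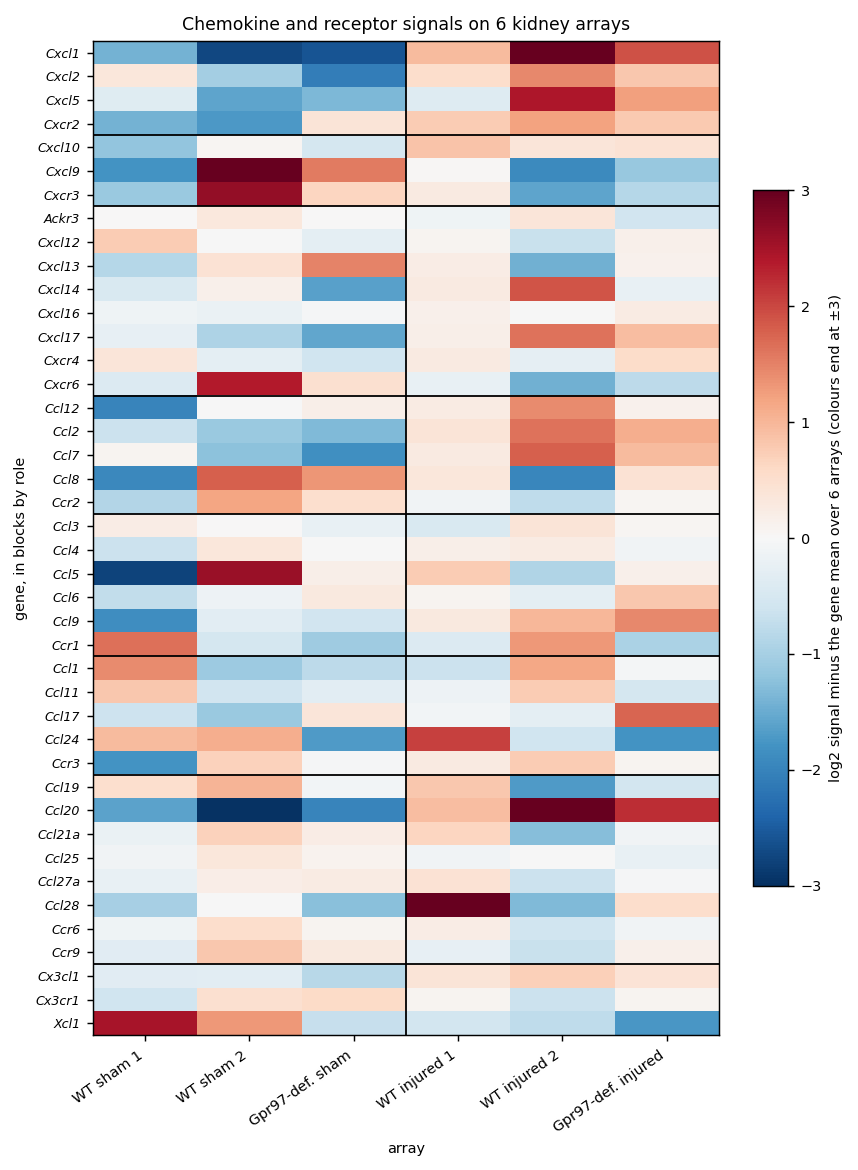
Heat map of 42 tested members (rows, in blocks by role) on the 6 arrays (columns). Colour gives the log2 signal minus that gene's mean over the 6 arrays, red for higher and blue for lower, and the vertical line parts sham from injured arrays; Cxcl1 and Ccl20 are blue on all 3 sham arrays and red on all 3 injured arrays, and Cxcl9, Cxcr3 and Cxcr6 are reddest on wild-type sham 2.

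The neutrophil-attracting CXC group has 7 members, of which Cxcl1, Cxcl2, Cxcl5 and Cxcr2 were tested. Cxcl2 and Cxcl5 entered the test only through the injured arrays, so no median is given for the group, and Cxcl1 alone was above background on all 6 arrays. Cxcl1, also known as KC, is a main neutrophil attractant of the mouse, and its probe lies at chr5:91321845-91321904 (mm9). Its values were -2.64 and -3.97 on wild-type sham 1 and 2, -3.83 on the Gpr97-deficient sham array, -0.29 on wild-type injured 1, 2.64 on wild-type injured 2, and 0.68 on the Gpr97-deficient injured array. Every injured array stood above every sham array, and the injured arrays were spread more widely than the sham arrays (SD 1.49 against 0.73, n = 3 each). Within the slides Cxcl1 was higher by 5.29 in the wild-type pair of slide 1, by 3.68 in the wild-type pair of slide 2 and by 4.51 in the Gpr97-deficient pair. The fitted difference was 4.49 ± 0.84 (SE), 22.5-fold, with a limma adjusted p of 0.261. Without wild-type injured 1 it was 5.33 ± 0.59 (SE), with a limma adjusted p of 0.160.

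Cxcl2, the neutrophil attractant MIP-2 encoded near Cxcl1, was above background only on the injured arrays. Its values were -5.38 and -6.72 on wild-type sham 1 and 2, -7.79 on the Gpr97-deficient sham array, -5.18 on wild-type injured 1, -4.27 on wild-type injured 2, and -4.90 on the Gpr97-deficient injured array. The groups did not overlap. For a probe that stayed at background on all arrays of one group, only a bound is given: the bright group's mean is set against a floor, which on each array is the lowest signal well above background or the probe's own signal, whichever is larger, averaged over the dim group. On that scale Cxcl2 was at least 1.35-fold higher after injury (limma adjusted p = 0.336). Cxcl5, an attractant made by epithelial cells, stood at -6.73, -7.97 and -7.72 on the sham arrays, in the same order, and at -6.76, -3.95 and -5.14 on the injured arrays. It was above background on 2 injured arrays only, and wild-type injured 1 lay below wild-type sham 1, so the groups overlapped. No fold is given for it, because the bound was under 1 (limma adjusted p = 0.393).

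Cxcr2, the receptor of these ligands on neutrophils, was low on both wild-type sham arrays and high on the Gpr97-deficient sham array. It stood at -5.92 and -6.22 on wild-type sham 1 and 2, -4.11 on the Gpr97-deficient sham array, -3.74 on wild-type injured 1, -3.30 on wild-type injured 2, and -3.70 on the Gpr97-deficient injured array. The difference over both genotypes was 1.84 ± 0.49 (SE), with a limma adjusted p of 0.326. In the wild type, whose sham arrays were both below background, it was at least 2.87-fold higher after injury (limma adjusted p = 0.772), and in the Gpr97-deficient pair it was higher by 0.41. Its second probe gave a difference smaller by 1.91 in the pair of slide 1. On that probe the Gpr97-deficient sham array lay between the wild-type sham arrays. Neutrophil markers summed highest on the Gpr97-deficient sham array. Of 12 listed markers, 11 have a probe and 4, 7 and 10 were above background on the sham arrays and 10, 5 and 9 on the injured arrays, in the same order. Their summed linear signal was 3.75, 2.60 and 60.1 on the sham arrays and 30.6, 12.7 and 28.2 on the injured arrays. S100a9 and S100a8 made up most of that sum, at log2 values of 5.49 and 3.61 on the Gpr97-deficient sham array. Of 10 markers tested, 9 were higher and 1 lower in Gpr97 deficiency after sham surgery. After injury over both genotypes, 6 were higher and 4 lower. Red blood cell markers were also highest on the Gpr97-deficient sham array, with sums of 6.71, 7.27 and 84.1 on the sham arrays and 43.8, 2.70 and 23.7 on the injured arrays. The part of either cell type in the Cxcr2 values was not tested. In whole kidney RNA, fewer cells of a type and less RNA per cell cannot be told apart.

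**Figure D2:**
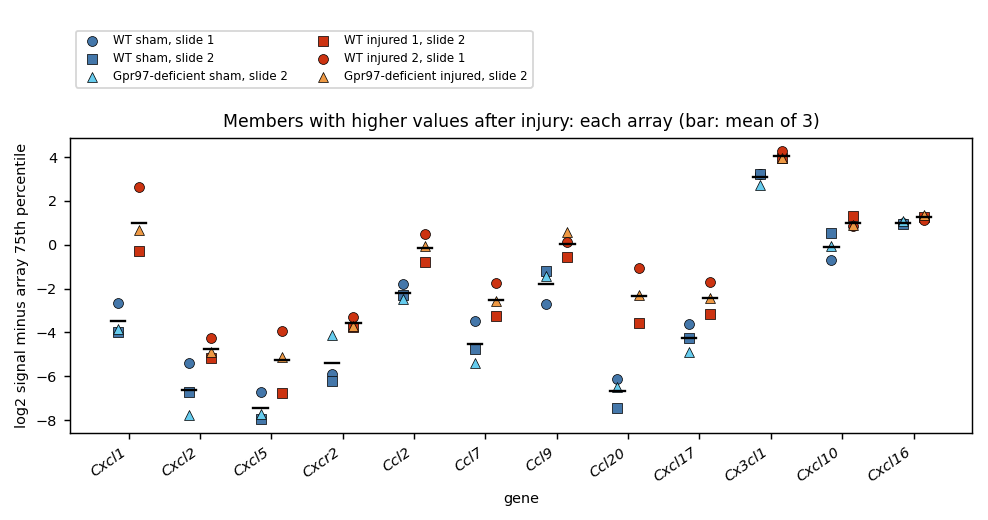
Log2 signal minus the array's 75th percentile (vertical axis) of 12 members on each array, with sham arrays at the left and injured arrays at the right of each gene, circles for slide 1, squares and triangles for slide 2, and bars for the mean of 3 arrays. The injured arrays lie wholly above the sham arrays for every gene drawn except Cxcl5, where wild-type injured 1 at -6.76 lies below wild-type sham 1 at -6.73. The other 11 were drawn because they have this order, so the choice fixed it.

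Chemokine promoters are classic targets of NF-kB, a transcription factor switched on by tissue damage and by inflammatory cytokines. RefSeq promoter windows (GRCm38.p6, from 250 bases before to 50 after the start) were available for 40 of the 54 genes and were searched on both strands. The NF-kB consensus was found in 8.46% of 32851 promoters, in 11 of the 40 member genes, in 5 of the 7 available genes among the 12 that were higher after injury by the rules above, and in 5 of the other 26 tested genes. The form of GGG and TTTCC with 2 bases between was found in 1.63% of all promoters, in 4 of those 7 genes and in 1 of the 26. The 2 motifs can share bases. The motif TATAAA was found in 13.6% of all promoters and in 2 of the 7, and 2 copies of GAAA with 2 bases between, an interferon response form, in 3.44% of all promoters and in 1 of the 7, Cxcl10. The 7 were chosen by their values, so the shares are a description, and a match is not a bound site.

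The 250 bases before the start are shown for the 5 genes with a match and for Cx3cl1, which was higher after injury with no match, with every base of a match to either NF-kB form in capitals, 5′ to 3′ on the gene's strand. They lie at chr5:90890995-90891244 (plus strand) for Cxcl1, chr5:90903649-90903898 (plus) for Cxcl2, chr1:83116516-83116765 (plus) for Ccl20, chr11:83578637-83578886 (minus) for Ccl9, chr5:92348890-92349139 (minus) for Cxcl10 and chr8:94771930-94772179 (plus) for Cx3cl1.
Cxcl1: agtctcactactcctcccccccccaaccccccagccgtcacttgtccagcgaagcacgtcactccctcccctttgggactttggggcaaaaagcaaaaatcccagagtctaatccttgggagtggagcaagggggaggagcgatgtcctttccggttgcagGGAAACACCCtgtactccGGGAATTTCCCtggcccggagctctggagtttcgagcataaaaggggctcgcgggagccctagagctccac
Cxcl2: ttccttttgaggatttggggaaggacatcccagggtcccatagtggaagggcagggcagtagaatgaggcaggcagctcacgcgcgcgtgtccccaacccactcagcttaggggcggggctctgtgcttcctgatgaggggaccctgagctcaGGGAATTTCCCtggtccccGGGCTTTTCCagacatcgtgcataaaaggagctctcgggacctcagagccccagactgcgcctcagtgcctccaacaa
Ccl20: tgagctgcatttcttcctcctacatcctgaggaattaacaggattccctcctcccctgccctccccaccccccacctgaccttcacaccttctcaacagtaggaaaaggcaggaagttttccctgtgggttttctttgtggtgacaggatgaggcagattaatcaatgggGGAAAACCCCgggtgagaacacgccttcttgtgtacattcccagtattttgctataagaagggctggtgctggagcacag
Ccl9: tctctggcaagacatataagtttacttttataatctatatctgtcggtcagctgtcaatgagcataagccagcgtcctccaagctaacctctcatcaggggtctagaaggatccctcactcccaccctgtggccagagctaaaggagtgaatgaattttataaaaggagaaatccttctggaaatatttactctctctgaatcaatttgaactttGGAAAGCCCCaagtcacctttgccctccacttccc
Cxcl10: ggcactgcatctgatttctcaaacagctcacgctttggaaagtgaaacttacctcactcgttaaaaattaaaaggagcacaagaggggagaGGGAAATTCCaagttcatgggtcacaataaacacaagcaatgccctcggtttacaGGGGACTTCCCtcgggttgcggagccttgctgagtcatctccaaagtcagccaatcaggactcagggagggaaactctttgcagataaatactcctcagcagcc
Cx3cl1: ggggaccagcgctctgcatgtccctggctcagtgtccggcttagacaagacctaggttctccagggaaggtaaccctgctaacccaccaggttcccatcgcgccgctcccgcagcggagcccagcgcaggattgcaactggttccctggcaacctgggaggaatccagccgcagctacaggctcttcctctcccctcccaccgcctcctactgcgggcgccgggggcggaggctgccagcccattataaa
In Cxcl1 the consensus began 71 bases before the start, with a match on the minus strand overlapping it. Cxcl2 holds the same run of capitals, beginning 97 bases before its start. A second match lay 89 bases before the start in Cxcl1, upstream of that run, and 78 bases before it in Cxcl2, downstream of the run. In Ccl20 the match lay 80 bases before the start, and in Ccl9 35 bases before it. Cxcl10 had matches at 159 and at 104 bases before the start.

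The monocyte-attracting CC group divided into members that were higher after injury and members that were highest on 1 sham array. Of 5 members tested, 3 were higher and 2 lower, with a median difference of 1.20. With the normexp correction 5 were higher and 0 lower, with a median of 0.77, so the division by direction did not hold there. Ccl2, or MCP-1, is the principal monocyte attractant and lies beside Ccl7 on chromosome 11, with its probe at chr11:81850650-81850709 (mm9). Its values were -1.81, -2.29 and -2.49 on wild-type sham 1, wild-type sham 2 and the Gpr97-deficient sham array, and -0.78, 0.47 and -0.08 on wild-type injured 1, wild-type injured 2 and the Gpr97-deficient injured array. No injured array overlapped a sham array. The within-slide differences were 2.28, 1.51 and 2.41 for the wild-type pair of slide 1, the wild-type pair of slide 2 and the Gpr97-deficient pair, and the fitted difference was 2.07 ± 0.39 (SE), 4.20-fold, with a limma adjusted p of 0.261. Without wild-type injured 1 it was 2.48 ± 0.22 (SE), with a limma adjusted p of 0.160.

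Ccl7, or MCP-3, a ligand of Ccr2 and other CC receptors, also had its highest value on wild-type injured 2. It stood at -3.46, -4.76 and -5.38 on the sham arrays and at -3.28, -1.75 and -2.58 on the injured arrays, in the same order. The groups did not overlap, with wild-type injured 1 close above wild-type sham 1. The fitted difference was 2.0 ± 0.59 (SE), with a limma adjusted p of 0.336, and without wild-type injured 1 it was 2.55 ± 0.47 (SE), with a limma adjusted p of 0.172. The second Ccl7 probe gave a difference larger by 1.96 in the pair of slide 1. Ccl12, a mouse Ccr2 ligand with no human counterpart of the same name, was the brightest probe of the group. Its values of -3.03, -1.06 and -0.87 on the sham arrays and -0.81, 0.38 and -0.91 on the injured arrays overlapped, and its difference of 1.20 ± 0.72 (SE) came from the pair of slide 1 (3.41), with 0.26 and -0.05 in the pairs of slide 2 (limma adjusted p = 0.559). Ccl8 and Ccr2 were lower after injury, by 0.79 and 0.54 on the log2 scale, and were highest on wild-type sham 2, at -0.87 and -1.24. Both were higher after injury with the normexp correction. The 14 monocyte and macrophage markers were all above background on every array, with summed signals of 124, 214 and 178 on the sham arrays and 196, 196 and 207 on the injured arrays.

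Ccl20, the ligand of Ccr6, which attracts subsets of T helper cells and immature dendritic cells, was above background on the injured arrays alone. It stood at -6.11, -7.46 and -6.48 on the sham arrays and at -3.58, -1.08 and -2.30 on the injured arrays, in the same order, with its probe at chr1:83115500-83115559 (mm9). It was at least 7.43-fold higher after injury (limma adjusted p = 0.260), at least 6.53-fold in the wild type and at least 9.61-fold in the Gpr97-deficient pair. Those bounds hold for the main processing only, since under other settings its fitted difference ranged from 1.46 to 5.05. Without wild-type injured 1 its fitted difference, taken against sham readings at background, was 5.05 against 4.37 with it (limma adjusted p = 0.160). Its receptor Ccr6, above background on 4 arrays, differed by -0.32, and its sham and injured ranges of -4.72 to -4.07 and -5.19 to -4.38 overlapped. Cxcl17, a mucosal chemokine that attracts myeloid cells, stood at -3.60, -4.27 and -4.91 on the sham arrays and at -3.16, -1.71 and -2.43 on the injured arrays. The groups did not overlap, and the difference was 1.83 ± 0.48 (SE), 3.55-fold, with a limma adjusted p of 0.323. Without wild-type injured 1 it was 2.34 ± 0.28 (SE), with a limma adjusted p of 0.160.

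Cx3cl1, fractalkine, a membrane-bound chemokine of endothelial and epithelial cells, was bright on every array and varied little. It stood at 3.23, 3.25 and 2.73 on the sham arrays and at 3.95, 4.27 and 3.96 on the injured arrays, in the same order. The groups did not overlap, and the within-slide differences were 1.04, 0.70 and 1.23. The fitted difference was 0.99 ± 0.18 (SE), 1.99-fold, with a limma adjusted p of 0.261, and without wild-type injured 1 it was 1.12 ± 0.17 (SE), with a limma adjusted p of 0.165. Its receptor Cx3cr1, found on monocytes and kidney mononuclear phagocytes, differed by -0.32 ± 0.37 (SE), with sham values from -2.92 to -1.74 and injured values from -2.96 to -2.24. Xcl1, lymphotactin, a product of T and NK cells, was above background on the wild-type sham arrays only. It stood at -3.10, -4.27 and -6.27 on the sham arrays and at -6.13, -6.34 and -7.31 on the injured arrays, so that the Gpr97-deficient sham array overlapped the injured arrays. It was at least 1.53-fold lower after injury (limma adjusted p = 0.282), but with the normexp correction its difference turned to 0.31. With that correction 3 of 3 genes of the CX3C and XC group were higher, Cx3cr1 among them.

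**Figure D3:**
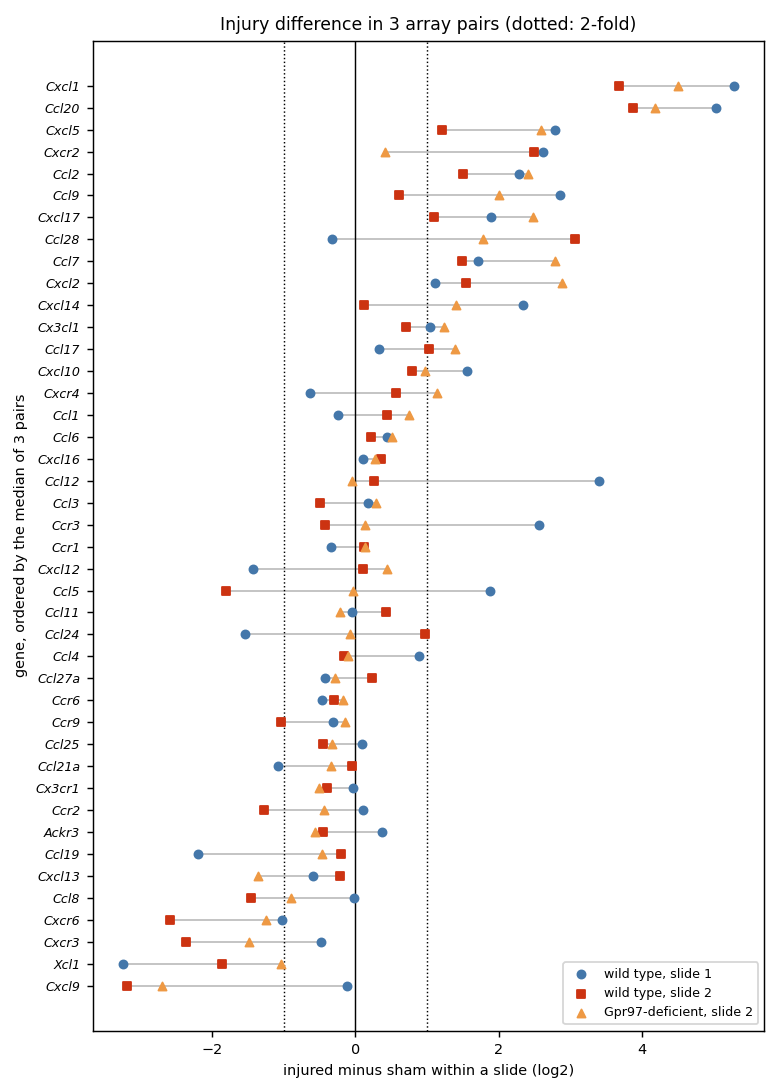
Injured minus sham difference in log2 signal (horizontal axis) within each of 3 array pairs for 42 tested members, ordered by the median of the 3 pairs. Circles are the wild-type pair of slide 1, squares the wild-type pair of slide 2 and triangles the Gpr97-deficient pair, with dotted lines at 2-fold. Cxcl1 and Ccl20 stand apart at the top, with every pair at 3.68 or more. The Ccl20 differences are taken against sham readings at background.

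The macrophage inflammatory group, whose ligands act on Ccr1 and related receptors of macrophages and T cells, had 4 of 7 members higher and 3 lower, with a median difference of 0.01. With the normexp correction 6 were higher and 1 lower, with a median of 0.49. Ccl9, or MIP-1 gamma, a Ccr1 ligand, was the only member of this role group with non-overlapping sham and injured arrays. It stood at -2.72, -1.19 and -1.44 on the sham arrays and at -0.57, 0.14 and 0.57 on the injured arrays. Its difference was 1.83 ± 0.46 (SE), with a limma adjusted p of 0.309, and 2.06 ± 0.53 (SE) without wild-type injured 1, with a limma adjusted p of 0.218. Its within-slide differences were 2.86, 0.61 and 2.01. Ccl6, a related mouse ligand, was higher by 0.44, 0.22 and 0.51 within the slides. Its difference held one sign in every pair and was small. Ccl3 and Ccl4, the MIP-1 alpha and beta ligands, differed by -0.01 and 0.21.

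Ccl5, Cxcl9, Cxcr3 and Cxcr6, which are made or carried by T and NK cells or attract them and were chosen after their values were seen, were highest on wild-type sham 2. Ccl5, or RANTES, a T and NK cell product, stood at -2.42 on wild-type sham 1, 2.94 on wild-type sham 2 and 0.54 on the Gpr97-deficient sham array, and at 1.13, -0.53 and 0.51 on the injured arrays. Both the lowest and the highest value were thus from wild-type sham arrays, and the fitted difference was 0.01 ± 1.45 (SE). Cxcl9, an interferon-gamma target, stood at -6.46, -1.42 and -3.09 on the sham arrays and at -4.61, -6.58 and -5.79 on the injured arrays. Its receptor Cxcr3, a marker of activated T cells, stood at -3.94, -0.21 and -2.19 on the sham arrays and at -2.58, -4.41 and -3.68 on the injured arrays. Within the slides Cxcl9 was lower by 0.12, 3.20 and 2.70 and Cxcr3 by 0.48, 2.37 and 1.49 on the log2 scale, with Cxcl9 at background on both arrays of slide 1. Their sham ranges overlapped their injured ranges, through wild-type sham 1. Cxcr6, the Cxcl16 receptor of T and NK cells, stood at -3.16, -0.38 and -2.27 on the sham arrays and at -2.97, -4.18 and -3.52 on the injured arrays. It was lower by 1.02, 2.59 and 1.25 within the slides on the log2 scale, and its fitted difference of -1.62 ± 0.80 (SE) had a limma adjusted p of 0.489. Without wild-type sham 2 the difference was -0.77.

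Wild-type sham 2 was the highest of the 3 sham arrays for 20 of 43 members, against 27.4% of all genes. T and NK cell markers had the same order: of 14 listed, 13 have a probe and 4, 12 and 12 were above background on the sham arrays and 11, 5 and 10 on the injured arrays, with summed signals of 0.75, 4.05 and 1.28 on the sham arrays and 1.28, 0.59 and 0.76 on the injured arrays. Dendritic cell markers summed to 5.56, 32.6 and 19.5 on the sham arrays and 12.7, 3.79 and 6.94 on the injured arrays. Ccr7, counted in that list and a receptor of naive T cells and migrating dendritic cells, was above background on wild-type sham 2 alone, at -4.53. The part of these cell types in the values of Ccl5, Cxcl9, Cxcr3 and Cxcr6 was not tested.

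**Figure D4:**
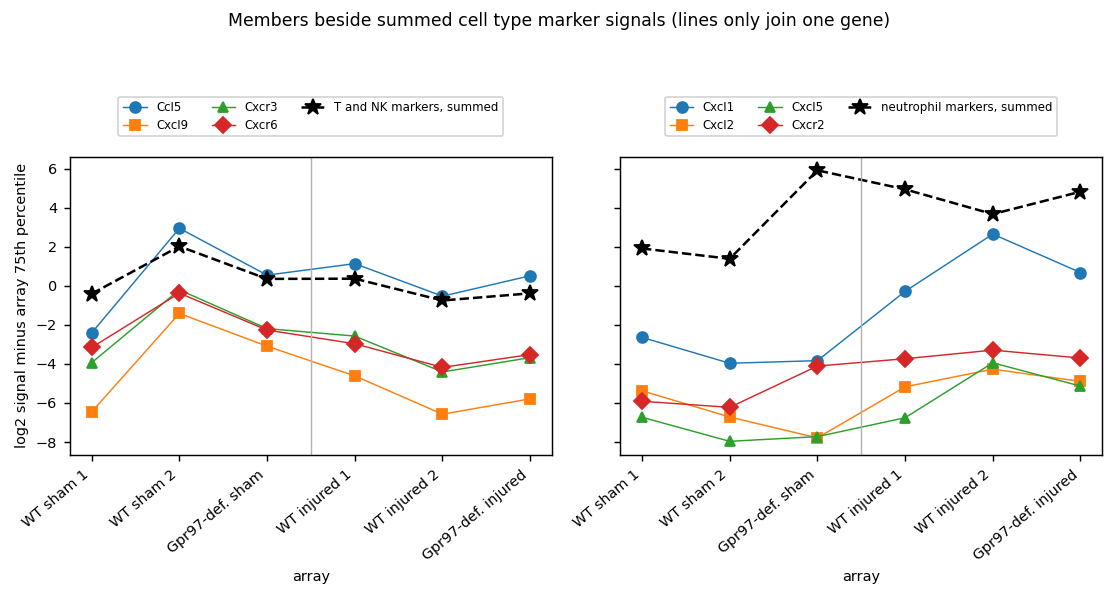
Log2 signal minus the array's 75th percentile (vertical axis) on the 6 arrays (horizontal axis) for lymphocyte-linked members beside the log2 of the summed T and NK cell marker signal (left), and for neutrophil-linked members beside the log2 of the summed neutrophil marker signal (right). Lines only join the values of 1 gene or list; Ccl5, Cxcl9, Cxcr3 and Cxcr6 peak on wild-type sham 2 with the T and NK cell markers, and the neutrophil markers peak on the Gpr97-deficient sham array, where Cxcr2 is at -4.11 and Cxcl1 at -3.83.

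Cxcl10, which shares the receptor Cxcr3 with Cxcl9, did not share its order. It stood at -0.72, 0.52 and -0.07 on the sham arrays and at 1.31, 0.83 and 0.89 on the injured arrays, with no overlap. The difference was 1.10 ± 0.37 (SE), 2.15-fold, with a limma adjusted p of 0.370. Cxcl16, a transmembrane ligand of Cxcr6, also had non-overlapping groups, at 1.01, 0.93 and 1.10 against 1.28, 1.11 and 1.37, but wild-type injured 2 was barely above the Gpr97-deficient sham array and the difference was 0.24 ± 0.15 (SE).

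Among the homeostatic CXC members, 4 were higher and 4 lower, with a median difference of 0.01. Cxcl12, or SDF-1, which holds stem cells and lymphocytes in their niches through Cxcr4, was the brightest probe of the group. It stood at 4.16, 3.40 and 3.11 on the sham arrays and at 3.50, 2.74 and 3.55 on the injured arrays, and its pairs differed in sign (-1.43, 0.10 and 0.44). Its second probe, above background on all 6 arrays, gave -2.01, -0.08 and -0.03, so the mixed sign was not shared by both probes. Cxcr4 differed by 0.36 ± 0.36 (SE) and Ackr3, the scavenging receptor that the array files name Cxcr7, by -0.22 ± 0.24 (SE). The pairs of Cxcr4 gave -0.63, 0.57 and 1.14, but those of its second probe gave -0.95, 0.33 and -0.09. Cxcl14, an epithelial chemokine, stood at 0.83, 1.43 and -0.35 on the sham arrays and at 1.55, 3.17 and 1.06 on the injured arrays. Wild-type sham 2 overlapped the injured arrays, and the difference was 1.29 ± 0.47 (SE), with a limma adjusted p of 0.389. Cxcl13, the B cell attractant, differed by -0.72 ± 0.60 (SE).

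The type 2 and homing members showed few shared directions. In the type 2 group, 4 of 5 members tested were higher, with Ccl17, or TARC, a Ccr4 ligand of T helper cells, as its brightest probe. Its values are given with the genotype differences below, and its injury difference was 0.92 ± 0.25 (SE), with a limma adjusted p of 0.326. In the homing group, 2 of 8 were higher, Ccl20 and Ccl28. Ccl28, a mucosal epithelial ligand, ranged from -4.59 to -3.35 on the sham arrays and from -4.66 to -0.28 on the injured arrays, and wild-type injured 1 held the highest value. Ccl25, a thymus and gut ligand of Ccr9 and the brightest probe of the group, stood at 0.72, 1.16 and 0.94 on the sham arrays and at 0.71, 0.81 and 0.62 on the injured arrays. Those groups overlapped at wild-type sham 1. Ccl19 and Ccl21a, the Ccr7 ligands of lymphoid tissue, differed by -0.96 and -0.49, and both were lowest on wild-type injured 2, at -1.33 and -0.99. Ccl21a is one of several near-identical gene copies, so its probe cannot be assigned to 1 copy.

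Injury was also fitted within each genotype. In the wild type (2 against 2 arrays), 7 of 43 members had an unadjusted limma p under 0.05, 6 higher and 1 lower, against 6.38% of all genes, and 0 passed adjustment. Among members above background on all 6 arrays, 5 of 27 did, with 1284 of 15831 genes. The 2 arrays of each wild-type group lie on different slides, and with slide as a block 13 of 43 members did, with 1975 of 19611 genes, and 0 members passed adjustment. In the Gpr97-deficient pair (1 against 1 array, assumed to vary like the wild type), 7 of 43 did, all higher, against 2.73% of all genes, and 0 passed adjustment. That pair alone was at least 2-fold higher for 13 members, against 4.6% of all genes, and at least 2-fold lower for 5, against 5.26%. Of those 13, Ccl20, Cxcl2 and Cxcl5 were above background on no sham array and entered the test through the injured arrays. Ccl20 and Cxcl2 are also among the 7. Cxcl1 differed by 4.48 ± 1.14 (SE) in the wild type and 4.51 ± 1.62 (SE) in Gpr97 deficiency, and Ccl2 by 1.90 ± 0.52 (SE) and 2.41 ± 0.73 (SE). Ccl12, in contrast, differed by 1.83 ± 0.83 (SE) in the wild type and -0.05 ± 1.17 (SE) in Gpr97 deficiency. Xcl1 was at least 2.35-fold lower in the wild type and at background on both Gpr97-deficient arrays. For all 7 members that were at least 2-fold higher in every pair, the Gpr97-deficient injured array lay between wild-type injured 2 above it and wild-type injured 1 below it. That order held for 11 of 43 members in all, against 22.9% of all genes, a share near the background.

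The test of the interaction, the injury difference in Gpr97 deficiency minus that in the wild type, gave 1 of 43 members at an unadjusted limma p under 0.05, against 1.48% of all genes, and 0 after adjustment. With slide as a block it gave 3 of 43, with 563 of 19611 genes. The 1 member was Cxcr2, at -2.14 ± 0.51 (SE), with a limma adjusted p of 1.0. That value is taken against wild-type sham readings at background. After sham surgery Cxcr2 was at least 1.90-fold higher in Gpr97 deficiency, and after injury it differed by 0.03 within slide 2. These values are from its brightest probe. The second probe, above background on 3 arrays, did not share the sham difference. It stood at -5.03 and -6.30 on wild-type sham 1 and 2 and at -5.12 on the Gpr97-deficient sham array. The neutrophil marker values given above stand beside those of Cxcr2.

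Genotype differences rested on 1 Gpr97-deficient array per surgery. Wild-type injured 1, whose signals go against its male label, is among the wild-type arrays they use. The labels thus allow no spread within that genotype, and the fits within a surgery take it from the wild-type arrays. In the additive fit over both surgeries, a gap between the injury differences of the genotypes also enters the spread. After sham surgery 3 of 43 members had an unadjusted limma p under 0.05, against 2.14% of all genes: Ccl17 and Cxcr2 higher and Xcl1 lower in Gpr97 deficiency. With slide as a block 6 did, with 791 of 19611 genes. After injury 1 did, Ccl17, against 1.43% of all genes. Over both surgeries 6 did, 3 higher, among them Ccl17 and Ccl6, and 3 lower (Ccl24, Cxcl14 and Xcl1), against 3.22%. None passed adjustment. The Gpr97-deficient array lay below both wild-type arrays of its surgery, after sham and after injury, for 5 of 43 members, against 12.5% of all genes, and above them for 4 members, against 9.41%. Both shares are near the background.

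Ccl17 had the smallest unadjusted p of the members over both surgeries. It stood at -3.96, -4.45 and -3.42, -3.63 on the wild-type sham and injured arrays, and at -2.97 and -1.58 on the Gpr97-deficient sham and injured arrays. The Gpr97-deficient array was highest after either surgery, by 1.48 and 1.84 within slide 2. The difference over both surgeries was 1.59 ± 0.26 (SE), 3.0-fold, with a limma adjusted p of 0.994. Ccl24, or eotaxin-2, a Ccr3 ligand of eosinophils, stood at -4.11, -3.98, -3.01 and -5.65 on wild-type sham 1 and 2 and wild-type injured 1 and 2, and at -6.77 and -6.85 on the Gpr97-deficient sham and injured arrays. It was not above background on either Gpr97-deficient array and was above it on 2 of 4 wild-type arrays. The only injured array above background was wild-type injured 1, whose Xist signal goes against its label. It was at least 2.66-fold lower (limma adjusted p = 0.994), and its second probe was above background on no array.

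Xcl1, whose values are given above, was at background on both Gpr97-deficient arrays and on both wild-type injured arrays, so that only the sham comparison had a measured side. Ccr1, a receptor of the macrophage inflammatory ligands, stood at -3.33, -5.50, -5.38 and -3.67 on wild-type sham 1 and 2 and wild-type injured 1 and 2, and at -6.05 and -5.93 on the Gpr97-deficient sham and injured arrays. Its high values were the 2 arrays of slide 1, which holds no Gpr97-deficient array. No fold is given, since all 4 arrays of slide 2 were at background. Cxcl14 was lower by 1.78 after sham surgery and by 0.50 after injury within slide 2 on the log2 scale, with a fitted difference of -1.39 ± 0.50 (SE). The limma adjusted p over both surgeries was 0.994 for Xcl1, Ccr1 and Cxcl14 alike. Eosinophil and mast cell markers, set beside Ccl24 and Ccl17, summed to 0.49, 0.77 and 0.81 on the sham arrays and 1.01, 0.43 and 0.64 on the injured arrays, and 4 of 8 were above background on no array. Their part was not tested.

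**Figure D5:**
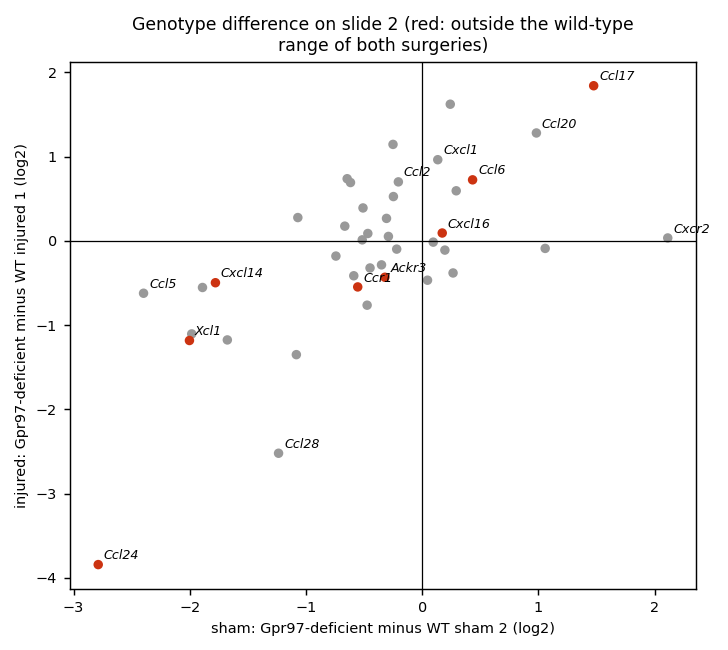
Gpr97-deficient minus wild-type difference in log2 signal within slide 2 for 42 tested members, after sham surgery (horizontal axis, 1 array against wild-type sham 2) and after injury (vertical axis, 1 array against wild-type injured 1). Red points are 8 members whose Gpr97-deficient arrays lay outside the wild-type range of both surgeries. Ccl17 lies at 1.48 and 1.84. Ccl24 lies at -2.79 and -3.84, with both Gpr97-deficient readings at background. Wild-type injured 1 is the array whose Xist signal goes against its male label.

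Other genes of the chemokine pathway were described by list. Over all genes tested, 8819 of 19611 were higher after injury. Of 22 genes of chemokine receptor signalling, 13 were higher after injury and 9 lower, with 0 called. The largest differences were those of Stat3, a transcription factor downstream of cytokine receptors, at 1.17 ± 0.17 (SE), and Gnb1, a G protein beta subunit, at 0.74 ± 0.19 (SE). Of 16 tested NF-kB and cytokine inducers of chemokines, 14 were higher and 2 lower, with 0 called. The largest were Il6 at 2.62 ± 1.08 (SE), above background on 2 arrays, and Ifng at -1.97 ± 0.75 (SE), also above background on 2 arrays and highest on wild-type sham 2, at -2.94. Of 11 tested leukocyte adhesion genes, 8 were higher and 3 lower, with 0 called. The adhesion molecules Vcam1 and Icam1, which hold leukocytes on activated endothelium, differed by 1.25 ± 0.51 (SE) and 1.21 ± 0.29 (SE). Of 8 tested chemokine family genes outside the naming rule, 4 were higher and 4 lower, with 0 called. Among them were Pf4, the platelet chemokine Cxcl4, at 0.99 ± 0.25 (SE), and Ccrl2, a receptor-like binder of chemerin, at -0.70 ± 0.21 (SE). With the normexp correction the higher counts of these 4 lists were 18, 16, 9 and 6, with 12398 of 19611 genes higher.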

How the data were processed

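Each of 6 kidney RNA samples was hybridised to 1 array. The deposited scanner files hold intensity values read with Feature Extraction 10.7.1.1 (slide 1) and 10.7.3.1 (slide 2), per the file headers, with probe positions in mm9. The background flags are other columns of the deposited files. The authors' deposited series values were read as log2 values made from the same signals (medians 6.07 to 6.09 and Spearman's rho of at least 0.999 with them) and used as an alternative. Their exact normalization and centring are unknown, and the submitters' processing notes name limma. The number of arrays limits the precision.

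Each array's processed signal was taken to log2 and scaled by its own 75th percentile, without control spots (43379 spots kept) or outlier spots. A gene took its brightest probe. Of 41174 probes, 27668 were named by accession, 6060 by symbol and 7446 as in the file. Two-sided limma tests (3.58.1, in R 4.3.3) were fitted to all 6 arrays, as group means, or as an additive model of genotype and surgery for differences over both. The scripts were tested on simulated data. An exact permutation test of 3 against 3 arrays cannot go below 0.1.

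Values on every array are given for members past the threshold (none), for members at least 2-fold the same way in every within-slide pair, for the brightest of each role group, and for the 5 largest genotype differences outside the wild-type range. Members with non-overlapping groups and lymphocyte-linked members were added after their values were seen, as were the counts by order among injured or sham arrays. Other genes are named as the 2 largest differences of their list, and S100a8 and S100a9 for their weight in a sum. Members and lists were chosen with earlier results of these data known. Protein sequences were not used here. 1 tested member is counted but its values are not reported here, and the figures leave it out.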

Additional observations from a re-analysis of the deposited data

How the results depend on the processing

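No member passed an adjusted p under 0.05 in those of the 7 comparisons that each of the 15 settings allowed. The smallest adjusted p was 0.0654, for Ccl20, from limma with slide as a block. Without either Gpr97-deficient array, the interaction and the Gpr97-deficient pair could not be fitted. Injury over both genotypes was then the wild-type fit. Counts of members rested on few genes and moved with the setting. Members with every injured array below every sham array numbered 0, but 2 with normexp and 1 each with quantile normalization, the deposited series values and the mean of probes. Leaving out 1 array gave 0 to 10, with 10 without wild-type sham 1 and 3 without wild-type injured 1. Over all genes the count with every array was 2441 of 19604, and 1760 with normexp and 2130 with quantile normalization. The deposited series values gave 2252 of 19611 genes and the mean of probes 2170 of 19606. With 1 array left out it was 2999 to 3986 genes. Members at least 2-fold higher in every pair numbered 7, but 2 with normexp, 4 with the filter of all 6 arrays and 5 with quantile normalization and with the deposited series values. Leaving out 1 array gave 8 to 10. Over all genes the count with every array was 234 of 19604, and 109 with normexp and 242 with quantile normalization. The deposited series values gave 226 of 19611 genes and the filter 162 of 15831. With 1 array left out it was 370 to 422 genes. Members at least 2-fold lower numbered 2, but 0 with normexp and the deposited series values, and 1 with quantile normalization, median scaling and the filter of all 6 arrays. Leaving out 1 array gave 2 to 4, with 4 without wild-type sham 1 or wild-type injured 2. Over all genes the count with every array was 149 of 19604, and 65 with normexp, 136 with quantile normalization and 157 with median scaling. The deposited series values gave 133 of 19611 genes and the filter 96 of 15831. With 1 array left out it was 221 to 530 genes. Xcl1 turned to 0.31 after injury with normexp, and Ccl8, Ccr2 and Cx3cr1 also turned from lower to higher. With normexp 5 of 8 homeostatic, 5 of 5 type 2 and 4 of 8 homing members were higher, with 12398 of 19611 genes. The cause of these moves was not tested, beyond the smaller number of genes that the filter leaves. The labels give no shared replicate numbers, so arrays were paired by slide alone. Signal over background limits Ccl20, Cxcl2, Cxcl5, Ccl24, Ccr1, Cxcr2 and Xcl1 to bounds in some comparisons.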
